A study of Mus musculus with 2 samples.

Results

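The genes described are Pdgfb, Pdgfa, Pdgfrb, Pdgfra, Rgs5, Abcc9, Kcnj8, Cspg4 and Vtn, 9 genes of platelet-derived growth factor (PDGF) signalling and of pericyte identity, taken by symbol from the 31253 genes of both count tables. Each symbol had 1 row in each table. They were measured in single cells from mouse brain at E12.5, released with collagenase, dispase and DNase and enriched with microbeads against CD31, an endothelial surface protein. Cells were captured in microwells, where bead oligonucleotides label transcripts from their 3′ end with the barcode of the cell and a molecular identifier (UMI). There was 1 library from Foxq1iECKO brains and 1 library from Foxq1flox/flox brains. Foxq1 encodes a forkhead transcription factor, the series title places its loss in the endothelium, and the comparison addresses its part in brain vessel growth and barrier formation. The sources used here do not give the Cre driver, the agent and time of its induction, whether the control embryos carried Cre or were treated alike, or the number of embryos in each library. With 1 library per genotype no test between genotypes was possible, so differences are described by size and have no replicate check.

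Endothelial cells of growing vessels secrete PDGF-B, which binds the receptor PDGFR-β on mural cells and keeps pericytes attached along new capillaries. In the brain, loss of this signal leaves vessels with few pericytes and a leaky barrier. PDGF-A signals mainly through PDGFR-α, which marks mesenchyme and, later in development, oligodendrocyte precursors. Rgs5 encodes a regulator of G-protein signalling, Abcc9 and Kcnj8 encode the regulatory (SUR2) and pore-forming (Kir6.1) subunits of an ATP-sensitive potassium channel, Cspg4 encodes the NG2 proteoglycan and Vtn the matrix protein vitronectin. These 5 genes are in common use as markers of brain pericytes.

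The Foxq1iECKO library held 72445925 UMIs over 15108 barcodes and the Foxq1flox/flox library 76580165 UMIs over 15837 barcodes. After filters and removal of predicted doublets (4.20% and 4.0% of the cells kept), 12557 and 13376 cells were used, with medians of 4061 and 4167 UMIs. The libraries shared 270 barcodes as deposited, and 173 among the cells used. Although CD31 was the sorting target, endothelial-like cells were 16.0% of the Foxq1iECKO cells and 19.5% of the Foxq1flox/flox cells, and fibroblast-like, neuron-like and cartilage-like cells were also abundant. Foxq1 stood at 223 CPM, that is UMIs per 1000000 UMIs of the class, in Foxq1iECKO endothelial-like cells, against 479 CPM in Foxq1flox/flox endothelial-like cells. In pericyte-like cells it stood at 534 and 624 CPM. The sources used here do not say which part of Foxq1 is deleted, so its 3′ UMIs need not come from intact transcripts.

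Cells were clustered without the 9 genes, which also took no part in naming the clusters. Pericyte-like cells numbered 310 in the Foxq1iECKO library and 282 in the Foxq1flox/flox library. Their cluster passed the naming threshold for 12 of 18 other pericyte markers, among them Notch3, a receptor needed by mural cells, at 807 and 721 CPM. The pericyte markers Des (3.14 and 5.96 CPM) and Higd1b (0.786 and 5.96 CPM) were almost absent, and the summed level of 15 fibroblast and other mesenchyme markers was 3616 and 5135 CPM. A further class of 522 Foxq1iECKO and 311 Foxq1flox/flox barcodes held endothelial and pericyte genes together and is called mixed. It was 4.16% of the Foxq1iECKO cells and 2.33% of the Foxq1flox/flox cells, and its median depth of 8145 and 9186 UMIs exceeded that of endothelial-like cells (4665 and 4694) and of pericyte-like cells (3694 and 3703). Whether a mixed barcode is 1 cell, 2 cells or a piece of vessel was not tested. Of 1108 predicted doublets, 24 (2.17%) had mixed barcodes as their nearest class.

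By the GENCODE M21 annotation of mm10, Pdgfb lies at chr15:79995874-80014977 on the minus strand, Pdgfa at chr5:138976014-138997370 (minus) and Pdgfra at chr5:75152292-75198215 (plus). Rgs5 lies at chr1:169655501-169695813 (plus), Cspg4 at chr9:56865033-56899870 (plus) and Vtn at chr11:78499091-78502324 (plus). Abcc9, at chr6:142587862-142702315 (minus), and Kcnj8, at chr6:142564837-142571614 (minus), are neighbours with 16247 bases between them, so both channel subunits come from the same strand of 1 locus. The RefSeq promoter table (GRCm38.p6) held 7 of the 9 genes. Sequence upstream of the annotated gene is shown for Rgs5, Abcc9 and Vtn, the members counted as higher in Foxq1iECKO endothelial-like cells, and for Kcnj8, the neighbour of Abcc9. Capitals mark 2 motifs searched on both strands, the forkhead core TGTTTA, read as TAAACA on the other strand, and the core TGGGAA of the Notch effector RBPJ, read as TTCCCA on the other strand. The windows are chr1:169655251-169655500 (plus) for Rgs5, chr6:142702316-142702524 (minus) for Abcc9, chr6:142571615-142571864 (minus) for Kcnj8 and chr11:78498870-78499090 (plus) for Vtn, each printed 5′ to 3′ on the strand of the gene.
Rgs5: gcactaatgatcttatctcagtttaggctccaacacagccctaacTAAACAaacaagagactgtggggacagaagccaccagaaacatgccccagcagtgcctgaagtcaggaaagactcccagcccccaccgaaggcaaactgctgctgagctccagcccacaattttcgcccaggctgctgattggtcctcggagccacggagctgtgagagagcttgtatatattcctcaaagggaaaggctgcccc
Abcc9: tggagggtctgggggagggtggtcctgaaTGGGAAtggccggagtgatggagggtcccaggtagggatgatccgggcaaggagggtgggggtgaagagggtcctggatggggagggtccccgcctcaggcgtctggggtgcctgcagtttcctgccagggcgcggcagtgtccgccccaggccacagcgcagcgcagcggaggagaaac
Kcnj8: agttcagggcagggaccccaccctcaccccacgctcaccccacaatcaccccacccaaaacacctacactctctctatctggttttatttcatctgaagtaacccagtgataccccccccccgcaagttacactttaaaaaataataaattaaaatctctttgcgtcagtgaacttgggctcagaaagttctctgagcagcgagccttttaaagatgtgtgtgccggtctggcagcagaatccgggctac
Vtn: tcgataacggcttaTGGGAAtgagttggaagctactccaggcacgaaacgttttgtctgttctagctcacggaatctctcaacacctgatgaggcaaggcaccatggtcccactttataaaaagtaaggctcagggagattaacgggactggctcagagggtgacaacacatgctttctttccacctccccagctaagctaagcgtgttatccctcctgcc

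The Rgs5 window held 1 forkhead core, on the minus strand 205 bases before the RefSeq start. Abcc9 held 1 RBPJ core 221 bases before its start and Vtn 1 RBPJ core 236 bases before its start. Neither motif was found in the windows of Kcnj8, Pdgfra or Cspg4. Among 32851 promoters, 12% held the forkhead core and 21.6% the RBPJ core in the 250 bases before the start. These matches are letters in a window and describe no bound site. GC content was 66.8% for Abcc9, 53.6% for Rgs5, 50.4% for Vtn and 49.2% for Kcnj8, against a median of 52.4% over all promoters.

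Pdgfb, the ligand for PDGFR-β, had its highest class levels in both endothelial classes but was not confined to them. Endothelial-like cells held 239 CPM (95% counting interval 231 to 248) in the Foxq1iECKO library and 279 CPM (272 to 287) in the Foxq1flox/flox library. Lymphatic endothelial-like cells stood at 237 and 250 CPM and mixed barcodes at 165 and 229 CPM. Macrophage-like cells also held the transcript, at 135 CPM (123 to 148) and 196 CPM (182 to 211). The small megakaryocyte-like class (47 and 68 cells) held 135 and 95.2 CPM, and the unnamed F13a1-led cluster 68.6 and 61.4 CPM. In pericyte-like cells Pdgfb was at 13.4 and 22.1 CPM. Fibroblast-like cells had 6.62 and 6.63 CPM, close to the 6.75 and 7.88 CPM of neuron-like cells, a class that served as a measure of free RNA. After each cell was thinned to 2000 UMIs, 33.9% of Foxq1iECKO and 38.3% of Foxq1flox/flox endothelial-like cells had a Pdgfb UMI, against 1.48% and 1.38% of neuron-like cells; 341 and 382 endothelial-like cells were too shallow to enter. Before thinning the endothelial-like shares were 60.1% and 63.4%. Median depth before thinning was 4665 and 4694 UMIs in endothelial-like and 3248 and 3271 UMIs in neuron-like cells.

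Pdgfa, the ligand of PDGFR-α, had a broader distribution that included both sides of the vessel wall. Lymphatic endothelial-like cells held 268 CPM (249 to 288) in the Foxq1iECKO library and 303 CPM (284 to 323) in the Foxq1flox/flox library, and pericyte-like cells 247 CPM (221 to 276) and 233 CPM (206 to 262). In the Foxq1iECKO library the intervals of these classes overlapped. The small neural crest-like class (72 and 30 cells) held 292 and 277 CPM. Endothelial-like cells stood at 176 CPM (169 to 183) and 122 CPM (117 to 127), and the unnamed Ttr-led cluster at 122 and 151 CPM. Its level was 61.1 and 42.3 CPM in fibroblast-like and 48.1 and 43.2 CPM in neuron-like cells. Mixed barcodes held 51.4 and 42.2 CPM, near the neuron-like level and below both classes whose genes they combine, unlike each of the 5 pericyte marker genes. The endothelial-like level pools subclusters, described below, that differ in Pdgfa. Mixed barcodes lay above the barrier subcluster (19.05 and 4.88 CPM) and below the Synm-led one (151 and 68.1 CPM). Leukocyte-like cells held less Pdgfa, at 17.9 and 8.92 CPM, so the neuron-like level is not the lowest.

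The receptors divided the stroma into mural and mesenchymal cells. Pdgfrb, the receptor gene for PDGF-B on chromosome 18, stood at 167 CPM (146 to 191) in Foxq1iECKO pericyte-like cells and 171 CPM (148 to 197) in Foxq1flox/flox pericyte-like cells. Mixed barcodes held 80.4 and 70.7 CPM, fibroblast-like cells 27.9 and 32.1 CPM, cartilage-like cells 14.3 and 9.86 CPM and endothelial-like cells 9.33 and 4.23 CPM. Lymphatic endothelial-like cells had 1 Pdgfrb UMI in 258 Foxq1iECKO cells and 0 in 282 Foxq1flox/flox cells, which allows a level of up to 0.991 CPM (3 UMIs of the total of that class). Pdgfra, the receptor for PDGF-A, was highest in fibroblast-like cells, at 526 CPM (514 to 538) and 641 CPM (628 to 655), followed by cartilage-like cells at 206 and 218 CPM. Pericyte-like cells held 40.9 CPM (30.5 to 53.6) and 38.3 CPM (28.0 to 51.3), and endothelial-like cells 7.70 and 10.3 CPM. In pericyte-like cells the oligodendrocyte precursor genes Sox10 and Nkx2-2 had no UMI in either library, and that list of 5 genes summed to 14.1 and 11.9 CPM.

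All 5 pericyte marker genes had their highest class level in pericyte-like cells of both libraries. Rgs5 reached 7949 CPM (7795 to 8106) in the Foxq1iECKO library and 7099 CPM (6948 to 7254) in the Foxq1flox/flox library. Mixed barcodes held 4661 and 4179 CPM of Rgs5, endothelial-like cells 915 and 334 CPM and neuron-like cells 45.8 and 17.6 CPM. Abcc9, the regulatory channel subunit, followed with 2976 and 2908 CPM in pericyte-like cells, 1540 and 1474 CPM in mixed barcodes and 345 and 177 CPM in endothelial-like cells. Its pore-forming partner Kcnj8 was at 152 CPM (131 to 175) and 103 CPM (85.5 to 123) in pericyte-like cells, 129 and 95.2 CPM in mixed barcodes and 10.3 and 7.81 CPM in endothelial-like cells, with 0.975 and 1.27 CPM in fibroblast-like cells. For Kcnj8 alone among the 5, the pericyte-like and mixed intervals overlapped in both libraries.

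Cspg4 did not separate pericytes from cartilage. It stood at 113 CPM (95.4 to 133) in Foxq1iECKO and 121 CPM (102 to 143) in Foxq1flox/flox pericyte-like cells, against 110 CPM (101 to 119) and 105 CPM (98.1 to 113) in cartilage-like cells, with overlapping intervals in both libraries. Vtn stood at 98.2 CPM (81.8 to 117) and 140 CPM (119 to 163) in pericyte-like cells and at 61.6 and 55.3 CPM in mixed barcodes. Outside vessel cells, Vtn was found in 1 of 4 fibroblast-like clusters, the one led by Cldn11, Calca and Gjb6, at 25.7 CPM (20.8 to 31.3) and 37.4 CPM (29.3 to 47.0). The other 3 fibroblast-like clusters stayed below 1 CPM in both libraries. Among 10 named classes of at least 100 cells per library, the class with the highest level was the same in both libraries for 9 of 9 genes, and for 7 of 9 after thinning.

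**Figure D1:**
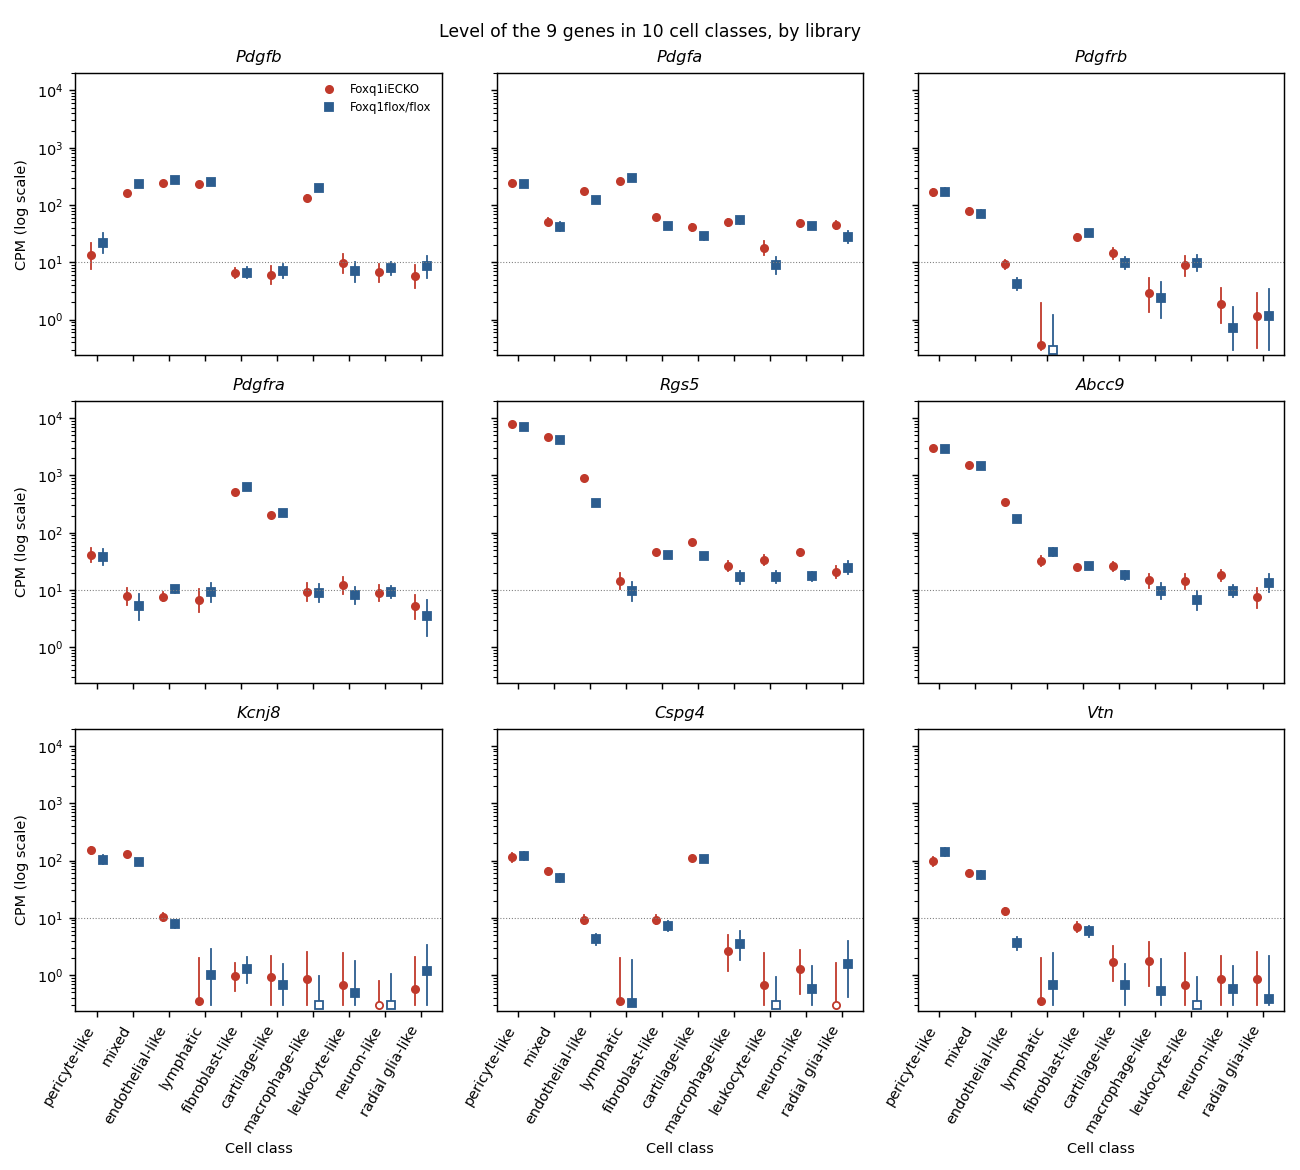
Level of each of the 9 genes (CPM, log scale) in 10 cell classes, with Foxq1iECKO as circles left of Foxq1flox/flox as squares and bars for 95% counting intervals. Open symbols near the axis floor stand for the lowest levels, 0 UMIs among them, and the dotted line is 10 CPM. Pdgfb is high in both endothelial classes and in macrophage-like cells, Pdgfra in fibroblast-like and cartilage-like cells, and Rgs5, Abcc9, Kcnj8 and Vtn step down from pericyte-like to mixed to endothelial-like cells.

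Set side by side within each library, pericyte-like cells exceeded endothelial-like cells for 7 of the 9 genes by at least 1.5-fold with an interval that excluded 1, in both libraries; this held for 17.7% of 9354 genes. The fold was 17.9 in the Foxq1iECKO library and 40.5 in the Foxq1flox/flox library for Pdgfrb, 8.68 and 21.2 for Rgs5, 8.64 and 16.5 for Abcc9, 12.1 and 28.6 for Cspg4, and 7.60 and 39.0 for Vtn. Kcnj8 was 14.7-fold and 13.2-fold higher and Pdgfra 5.31-fold and 3.71-fold higher. Pdgfb was 17.9-fold and 12.6-fold lower in pericyte-like than in endothelial-like cells, as were 10.3% of genes by the same limit in the lower direction. Pdgfa, 1.41-fold higher in the Foxq1iECKO library and 1.90-fold in the Foxq1flox/flox library, passed the limit in the Foxq1flox/flox library alone. These classes were made from other genes of the same cells, so the folds describe the classes and test nothing.

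Against fibroblast-like cells, pericyte-like cells were higher in both libraries for 8 genes, where 9.79% of 9507 genes were, and lower for Pdgfra, where 12.7% were. Rgs5 was 171-fold and 172-fold higher, Abcc9 120-fold and 110-fold, Kcnj8 156-fold and 81.3-fold, and Pdgfrb 5.99-fold and 5.33-fold. Pdgfra was 12.9-fold lower in the Foxq1iECKO library and 16.7-fold lower in the Foxq1flox/flox library.

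Mixed barcodes carried the ligand and its receptor together. A UMI of Pdgfb and a UMI of Pdgfrb were found in the same barcode for 140 of 522 Foxq1iECKO mixed barcodes (26.8%, exact binomial interval 23.1 to 30.8) and 116 of 311 Foxq1flox/flox mixed barcodes (37.3%, 31.9 to 42.9). The shares were 4.52% and 1.77% in pericyte-like cells and 3.89% and 2.00% in endothelial-like cells, all without thinning. Relative to pericyte-like cells, mixed barcodes held 58.6% and 58.9% of the Rgs5 level, 51.8% and 50.7% of Abcc9, 48.0% and 41.3% of Pdgfrb, 59.0% and 41.3% of Cspg4 and 62.7% and 39.6% of Vtn. Kcnj8 was nearer to the full pericyte-like level, at 85.3% and 92.3%. Pdgfb in mixed barcodes was 68.8% of the endothelial-like level in the Foxq1iECKO library and 82.1% in the Foxq1flox/flox library. Both Pdgfa (20.7% and 18.2% of the pericyte-like level, 29.2% and 34.6% of the endothelial-like level) and Pdgfra (19.1% and 14% of the pericyte-like level) were low against these pooled class levels.

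In endothelial-like cells the pericyte markers Rgs5, Abcc9 and Vtn passed the limit of size between the genotypes, while Kcnj8 and the ligand genes Pdgfb and Pdgfa did not. A gene counts as higher or lower when it has at least 10 CPM in at least 1 library, a ratio of 1.5 or more (0.58 on the log2 scale) and a 95% counting interval of the ratio (in brackets) that excludes 1; log2 ratios are Foxq1iECKO over Foxq1flox/flox. Of 7 measured members 3 were higher and 0 lower, where 1.62% of 8023 measured genes were higher and 0.449% lower. Rgs5 was at 915 CPM (900 to 931) in Foxq1iECKO and 334 CPM (326 to 343) in Foxq1flox/flox endothelial-like cells, a log2 ratio of 1.45 [1.41, 1.5]. Abcc9 was at 345 CPM (335 to 354) and 177 CPM (171 to 183), a ratio of 0.96 [0.90, 1.03], and Vtn at 12.9 CPM (11.1 to 14.9) and 3.59 CPM (2.78 to 4.55), a ratio of 1.85 [1.44, 2.28]. Pdgfb, at 239 and 279 CPM, had a ratio of -0.22 [-0.29, -0.16], inside the limit of size although its interval was below 0. Pdgfa (0.53 [0.44, 0.61]), Kcnj8 (0.40 [0.06, 0.74]) and Pdgfra (-0.42 [-0.78, -0.08]) were also inside. Pdgfrb and Cspg4, with 132 UMIs each in the Foxq1iECKO and 79 UMIs each in the Foxq1flox/flox cells, stayed under 10 CPM in both libraries at a ratio of 1.14 [0.73, 1.56] and were not counted.

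Other pericyte genes were higher beside these 3 members in endothelial-like cells. Of 22 pericyte genes beyond the members 13 were measured, and 9 of them were higher and 0 lower. Over all 8023 measured genes 1.62% were higher and 0.449% lower. The median log2 ratio of the list was 0.97, against -0.03 over all measured genes. The list includes the 18 pericyte markers that set which subclusters are called mixed and leave this class. Its ratios are therefore no separate support for those of the members. Ednra, the endothelin receptor of mural cells, was at 42.5 CPM in the Foxq1iECKO and 13.6 CPM in the Foxq1flox/flox cells (1.64 [1.43, 1.86]). Notch3 was at 51.9 and 22.3 CPM (1.22 [1.04, 1.39]), and Gucy1b1, a subunit of the nitric oxide receptor, at 21.1 and 8.19 CPM (1.37 [1.08, 1.66]). The transcription factor genes Tbx18, Zic1 and Heyl and the genes Art3, Rgs4 and Lhfp were the others. Summed over the 18 pericyte markers used for naming, the level was 1203 CPM in Foxq1iECKO and 1063 CPM in Foxq1flox/flox endothelial-like cells, of which the forkhead gene Foxf2 gave 251 CPM in each. Among 9 measured fibroblast and other mesenchyme markers, Col3a1 (90.4 and 42.8 CPM), Twist1 (14.3 and 8.99 CPM) and Postn (14.7 and 8.88 CPM) were higher, and the list summed to 568 and 443 CPM. The 15 endothelial markers held 0 higher and 0 lower, with a median of -0.21.

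Rgs5 and Abcc9 were also higher in some classes other than vessel cells. In neuron-like cells Rgs5 was at 45.8 CPM (39.9 to 52.3) in the Foxq1iECKO and 17.6 CPM (14.6 to 21.01) in the Foxq1flox/flox library, a ratio of 1.38 [1.05, 1.71], and Abcc9 at 18.2 and 9.74 CPM, a ratio of 0.90 [0.42, 1.38]; 2.40% of 9148 genes were higher in that class. Rgs5 was also higher in the cartilage-like, leukocyte-like and macrophage-like classes and 2 unnamed clusters, led by F13a1 and by Ttr, at ratios between 0.68 and 1.60, where 1.76%, 2.21%, 2.00%, 3.80% and 2.81% of genes were higher, so that 7 of 12 classes showed it. Abcc9 was higher in leukocyte-like cells (1.09) and in the F13a1-led cluster (1.23) too, and lower in radial glia-like cells (-0.85), where 3.49% of genes were lower. After thinning to 2000 UMIs, 27.8% of Foxq1iECKO and 16.3% of Foxq1flox/flox endothelial-like cells had an Rgs5 UMI (34.0% and 23.8% before thinning), against 5.19% and 3.15% of neuron-like cells. A gate on single cells, which took cells with at least 2 UMIs of 6 endothelial genes and none of 4 pericyte and 2 collagen genes, left Rgs5 as the 1 member past the limit, at 185 and 104 CPM with a ratio of 0.83 [0.74, 0.92]; Abcc9, at 119 and 91.2 CPM, then had a ratio of 0.38 [0.27, 0.49]. Vtn was not counted with this gate. The part of free RNA, of attached pericyte material and of endothelial transcription in the ratios of this paragraph was not tested.

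**Figure D2:**
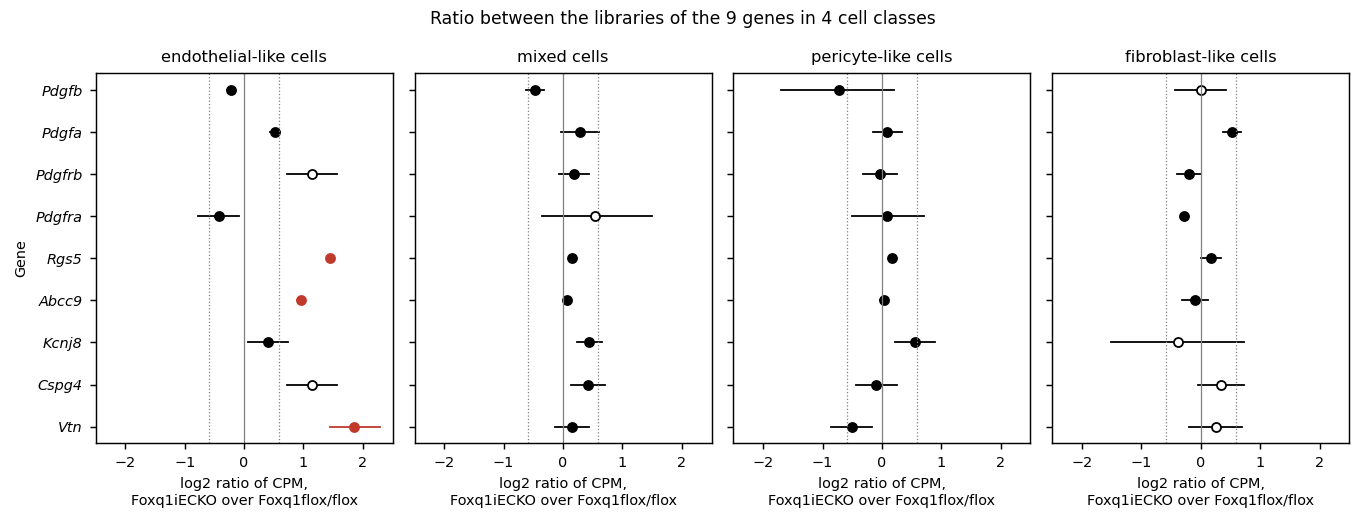
Log2 ratio of CPM, Foxq1iECKO over Foxq1flox/flox, of the 9 genes in endothelial-like, mixed, pericyte-like and fibroblast-like cells, with bars for 95% counting intervals and dotted lines at the 1.5-fold limit. Red points passed the limit, and open points were under 10 CPM in both libraries. Rgs5, Abcc9 and Vtn are past the limit in endothelial-like cells, and no member is past it in the other 3 classes.

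Of 8 endothelial subclusters, 2 held most of the higher values. The subcluster led by Synm, Slc25a33 and Plekhh1, with 555 Foxq1iECKO and 726 Foxq1flox/flox cells, carried no subtype name but had barrier genes at a sum of 7558 and 8855 CPM. In it 7 of 8 measured members were higher and 0 lower, where 5.41% of 8007 genes were higher and 2.30% lower. Rgs5 was at 2300 CPM (2257 to 2344) in Foxq1iECKO and 722 CPM (702 to 743) in Foxq1flox/flox cells, a ratio of 1.67 [1.62, 1.72]. Abcc9 was at 703 and 234 CPM (1.59 [1.5, 1.67]), Vtn at 33.6 and 7.72 CPM (2.12 [1.66, 2.61]), Cspg4 at 22.6 and 7.56 CPM (1.58 [1.08, 2.10]) and Pdgfrb at 23.2 and 8.34 CPM (1.48 [0.99, 1.98]). Kcnj8 was at 14.7 and 6.33 CPM (1.21 [0.64, 1.81]). Pdgfa was higher as well, at 151 CPM (140 to 163) and 68.1 CPM (61.9 to 74.7), a ratio of 1.15 [0.98, 1.33]. Pdgfb was the measured exception, at 238 and 326 CPM with a ratio of -0.45 [-0.56, -0.35], inside the limit. Notch3 stood at 113 and 35.8 CPM in these cells and Foxq1 at 409 and 897 CPM.

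The arterial subcluster, led by Gja5, Fbln2 and Bmx, with 120 and 187 cells, also held higher pericyte markers. There 3 of 8 measured members were higher and 0 lower, where 3.91% of 8201 genes were higher and 3.50% lower. Rgs5 stood at 1896 CPM (1801 to 1995) in the Foxq1iECKO and 742 CPM (698 to 789) in the Foxq1flox/flox arterial cells, a ratio of 1.35 [1.24, 1.47], Abcc9 at 433 and 213 CPM (1.02 [0.80, 1.25]) and Vtn at 23.0 and 7.14 CPM (1.69 [0.50, 2.97]). In the subcluster named barrier, led by Cxcl12, Fam13a and Zfp366, whose barrier genes summed to 16915 and 17296 CPM, Rgs5 was at 245 and 197 CPM (0.32 [-0.07, 0.71]) and Abcc9 at 66.7 and 53.6 CPM (0.31 [-0.47, 1.09]), both inside. Across the 8 subclusters Rgs5 was higher in 6 and lower in 0, although its level in the Gbp2-led (48.0 and 20.5 CPM) and Hbb-y-led (30.7 and 9.44 CPM) ones was near or below the 45.8 and 17.6 CPM of neuron-like cells, whose own ratio was 1.38. In the other 4 of these, led by Gbp2, Zfp791, Irf1 and Hbb-y, 0.863%, 2.38%, 2.30% and 3.50% of genes were higher. Abcc9 was higher in 2 and lower in 1, and Pdgfb higher in 0 and lower in 1. The lower values of both came from the cycling subcluster of 122 and 168 cells, with Pdgfb at 130 CPM (102 to 165) and 206 CPM (177 to 238), a ratio of -0.66 [-1.08, -0.26], and Abcc9 at 52.1 and 82.4 CPM, a ratio of -0.66 [-1.35, -0.01]; 2.86% of 8593 genes were lower there. The share of cycling cells with an Abcc9 UMI was 14.8% in the Foxq1iECKO and 14.3% in the Foxq1flox/flox library (8.65% and 6.29% after thinning), so the lower Abcc9 level came with no lower share of cells. Pdgfra was lower in the Gbp2-led (7.50 and 14.6 CPM) and barrier (2.38 and 17.9 CPM) subclusters, where 1.08% and 1.93% of genes were lower, at levels near the 9.07 and 9.31 CPM of neuron-like cells. Whether the ratios differ between subclusters was not tested.

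**Figure D3:**
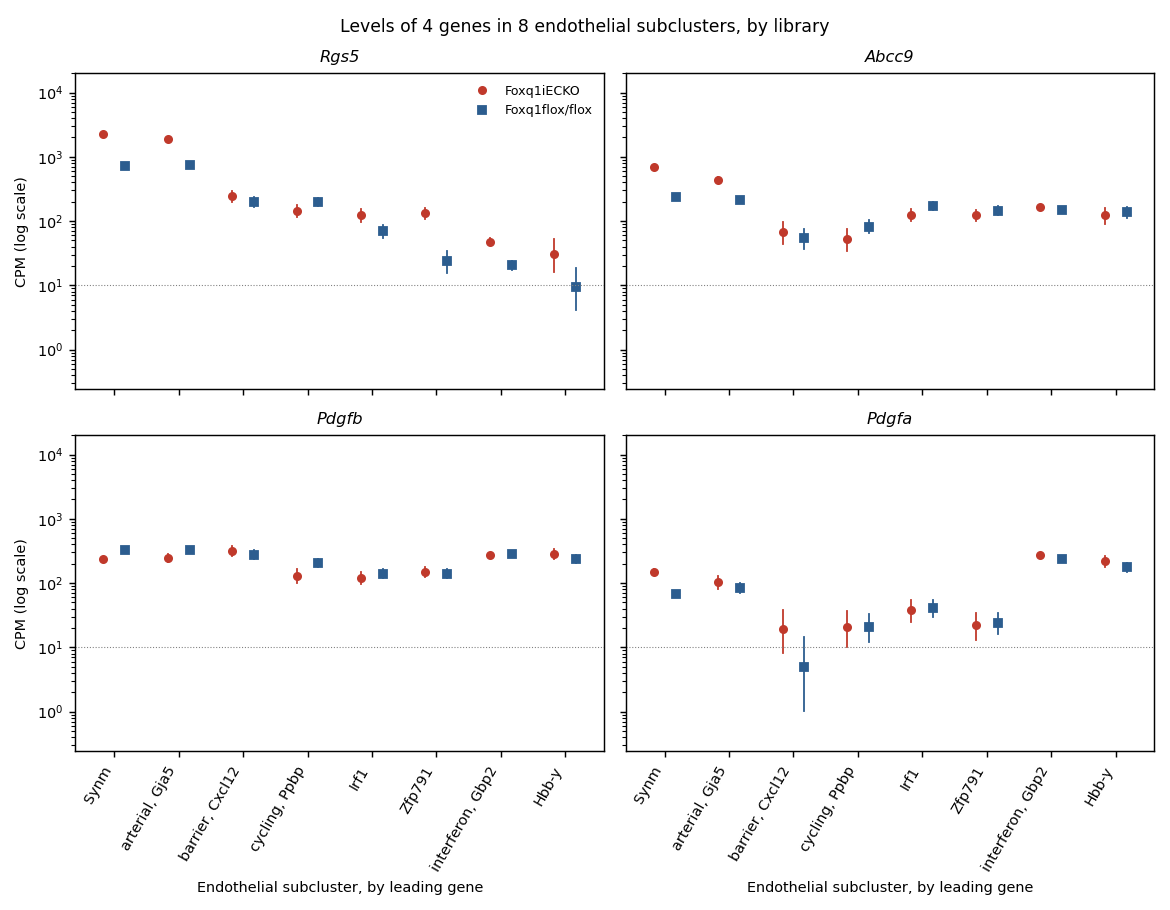
Levels (CPM, log scale) of Rgs5, Abcc9, Pdgfb and Pdgfa in 8 endothelial subclusters named by leading gene, with Foxq1iECKO as circles left of Foxq1flox/flox as squares and bars for 95% counting intervals; the dotted line is 10 CPM. Rgs5 and Abcc9 are above their Foxq1flox/flox level in the Synm and arterial subclusters, Abcc9 stays above 100 CPM in the Irf1, Zfp791, Gbp2 and Hbb-y subclusters where Rgs5 is far below its Synm level, and Pdgfa is highest in the Gbp2 and Hbb-y subclusters.

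Part of the endothelial Abcc9 was found in cells with little Rgs5. In the interferon subcluster, led by Gbp2, Iigp1 and Cyp1b1, with 610 Foxq1iECKO and 640 Foxq1flox/flox cells, Abcc9 was at 163 CPM (153 to 174) and 147 CPM (137 to 156), against 18.2 and 9.74 CPM in neuron-like cells. Rgs5 was at 48.0 CPM (42.5 to 54.0) and 20.5 CPM (17.1 to 24.4) in the same cells. These intervals overlapped those of neuron-like cells in both libraries, and whether this Rgs5 is free RNA was not tested. The subcluster had 934 and 916 Abcc9 and 275 and 128 Rgs5 UMIs, so its Abcc9 to Rgs5 ratio differed between libraries mainly through Rgs5. That subcluster held 3.40 Abcc9 UMIs per Rgs5 UMI (interval 2.97 to 3.90) in the Foxq1iECKO and 7.16 (5.94 to 8.68) in the Foxq1flox/flox library. Pericyte-like cells held 0.374 and 0.410, mixed barcodes 0.330 and 0.353 and the Synm-led subcluster 0.306 and 0.324. Higher values than in pericyte-like cells were also found in the subclusters led by Zfp791 (0.939 and 6.11), Irf1 (1.01 and 2.49) and Hbb-y (4.0 and 14.5) and in lymphatic endothelial-like cells (2.22 and 4.86). The Hbb-y values rest on 13 and 8 Rgs5 UMIs in 40 and 74 cells (intervals 2.15 to 8.01 and 7.12 to 34.4). The Zfp791 value of the Foxq1flox/flox library rests on 28 Rgs5 UMIs (4.08 to 9.46). Rgs5 in these subclusters was at 133 and 23.9 CPM (Zfp791), 123 and 68.9 CPM (Irf1) and 30.7 and 9.44 CPM (Hbb-y). The interferon subcluster had the vessel-wall gene Plvap, typical of vessels without a barrier, at 136 and 128 CPM, and Mfsd2a, a lipid carrier of barrier endothelium, at 0.523 and 1.12 CPM. Its Kcnj8 level was 8.37 and 9.28 CPM, under 10 CPM in both libraries. A 3′ UMI does not tell which Abcc9 transcript it comes from.

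Among the 8 endothelial subclusters Pdgfa was highest in the interferon and Hbb-y subclusters. It was at 269 CPM (256 to 283) in Foxq1iECKO and 237 CPM (225 to 250) in Foxq1flox/flox cells of the interferon subcluster, and at 217 and 176 CPM in the Hbb-y subcluster. The barrier subcluster held 19.0 CPM (8.22 to 37.5) and 4.88 CPM (1.00 to 14.2), below the 48.1 and 43.2 CPM of neuron-like cells. The Zfp791-led subcluster (21.9 and 23.9 CPM) and the Irf1-led one (37.6 and 41.2 CPM), 2 others with a high Abcc9 to Rgs5 ratio, were likewise not above the neuron-like level. Leukocyte-like cells held less Pdgfa than neuron-like cells, with intervals of 13.4 to 23.3 and 6.2 to 12.3 CPM. The Irf1-led intervals (24.5 to 55.0 and 29.8 to 55.45 CPM) lay above those, so a level under the neuron-like one does not show absence. Pdgfb varied less, between 120 and 314 CPM over the 8 subclusters of the Foxq1iECKO library and between 139.8 and 327 CPM over those of the Foxq1flox/flox library.

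In mixed barcodes 0 of 8 measured members passed the limit of size, where 2.53% of 8338 genes were higher and 1.60% lower. Pdgfb was at 165 CPM (153 to 177) in Foxq1iECKO and 229 CPM (212 to 247) in Foxq1flox/flox mixed barcodes, a ratio of -0.48 [-0.63, -0.32]. Kcnj8 (0.44 [0.24, 0.65]) and Cspg4 (0.42 [0.13, 0.71]) had intervals above 0 but inside the limit. Pdgfrb, at 80.4 CPM (72.3 to 89.1) and 70.7 CPM (61.5 to 80.9), had a ratio of 0.19 [-0.06, 0.44]. Of 20 measured pericyte genes beyond the members, 0 were higher and 0 lower, with a median of 0.12. Mixed barcodes were 62.7% of mixed and pericyte-like barcodes together in the Foxq1iECKO library and 52.5% in the Foxq1flox/flox library, and 20.7% and 10.7% of mixed and endothelial-like barcodes. The boundary between the mixed class and the Synm-led subcluster rests on pericyte genes, so these shares and the ratios in endothelial-like cells depend on each other.

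In pericyte-like cells no member differed past the limit between the libraries. Of 9 members 0 passed the limit, where 2.35% of 8883 genes were higher and 3.78% lower (209 and 336 genes; 284 and 262 under median-of-ratios scaling). Pdgfrb was at 167 and 171 CPM, a ratio of -0.03 [-0.32, 0.25]. Rgs5 had a ratio of 0.16 [0.12, 0.21], Abcc9 0.03 [-0.03, 0.10] and Cspg4 -0.10 [-0.44, 0.25]. Kcnj8, at 152 and 103 CPM, had a ratio of 0.56 [0.22, 0.90] and passed the limit under 2 other scalings, at up to 0.62. Vtn, at 98.2 and 140 CPM, had a ratio of -0.51 [-0.86, -0.16]. Pdgfa (0.09 [-0.15, 0.33]), Pdgfra (0.09 [-0.51, 0.70]) and Pdgfb (-0.73 [-1.70, 0.21], 17 and 26 UMIs) had intervals that included 0. The Pdgfrb interval covers counting error only, so equal levels are not shown.

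Among other genes of pericyte-like cells, 20 of 22 further pericyte genes were measured, with 0 higher, 0 lower and a median of 0.02 against -0.04 over all genes. PDGF receptor signalling, with 27 of 28 genes measured, held 0 higher and 2 lower, the phospholipase gene Plcg1 (7.07 and 17.0 CPM, -1.27 [-2.59, -0.07]) and the transcription factor gene Stat5b (9.43 and 22.1 CPM, -1.23 [-2.35, -0.19]), with a median of -0.10. Smooth muscle markers were 3 of 7 lower, with a median of -0.54. Acta2, smooth muscle actin, was at 113 and 222 CPM (-0.97 [-1.28, -0.68]), Tagln at 30.7 and 68.2 CPM and Myh11 at 5.50 and 23.9 CPM. Fibroblast and other mesenchyme markers were 5 of 13 lower, among them the collagen gene Col1a1 at 431 and 723 CPM (-0.75 [-0.91, -0.59]). Mylk, a myosin kinase gene and the smooth muscle marker with the highest level, was inside the limit at 541 and 506 CPM (0.10 [-0.07, 0.26]). The share of each kind of cell in the class was not tested.

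The pericyte-like cells fell into 5 subclusters, in which the 2 channel subunits differed. Kcnj8 was highest in the subcluster led by Slitrk6, Mndal and Gprc5c (86 and 59 cells), at 376 CPM (308 to 455) in the Foxq1iECKO and 246 CPM (181 to 326) in the Foxq1flox/flox library, and next in the one led by Dbx1 and H1f5 (64 and 30 cells), at 216 and 203 CPM. It was at 52.0 and 59.5 CPM in the subcluster led by Thbd (69 and 77 cells), 27.7 and 44.2 CPM in the one led by Gm26612 and the mitotic gene Kif11 (57 and 62 cells), and 30.4 and 64.8 CPM in the one led by Myh11 (34 and 54 cells). Rgs5, by contrast, was at 10358 and 10590 CPM in the Thbd-led subcluster and 11525 and 11648 CPM in the Slitrk6-led one. Abcc9 was at 3370 and 4130 CPM in the Thbd-led and 4230 and 4053 CPM in the Slitrk6-led subcluster. In the Myh11-led subcluster Rgs5 (4481 and 3556 CPM), Abcc9 (1613 and 1543 CPM) and Pdgfrb (122 and 99.4 CPM) had the lowest levels of the 5. For Rgs5 and Pdgfrb the intervals overlapped those of the Gm26612-led subcluster in both libraries. Pdgfa was high where Kcnj8 was low, at 393 and 329 CPM in the Gm26612-led, 373 and 259 CPM in the Myh11-led and 348 and 218 CPM in the Thbd-led subcluster, against 107 and 102 CPM in the Slitrk6-led and 73.3 and 143 CPM in the Dbx1-led subcluster.

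Between the libraries, 4 member levels in pericyte-like subclusters were past the limit. Kcnj8 was higher in the Slitrk6-led subcluster (0.61 [0.11, 1.14]), where 1.94% of 9746 genes were higher, and Pdgfa in the Thbd-led one (0.67 [0.17, 1.19]), where 2.34% of 8899 genes were. In the Gm26612-led subcluster, where 3.11% of 8880 genes were lower, Vtn was at 46.1 and 96.7 CPM (-1.07 [-2.05, -0.16]) and Cspg4 at 49.2 and 93.9 CPM (-0.93 [-1.89, -0.04]). These rest on few cells, and Pdgfrb was inside the limit in each of the 5 subclusters. Vtn and Cspg4 had ratios below 0 in 5 of 5 subclusters, with 1 of 5 past the limit for each gene. The subclusters are parts of the same libraries, so the shared sign is no repeated check. Foxq1 was at 205 CPM (135 to 299) in Foxq1iECKO and 8.64 CPM (1.05 to 31.2) in Foxq1flox/flox cells of the Myh11-led subcluster, the Foxq1flox/flox value from 2 UMIs.

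**Figure D4:**
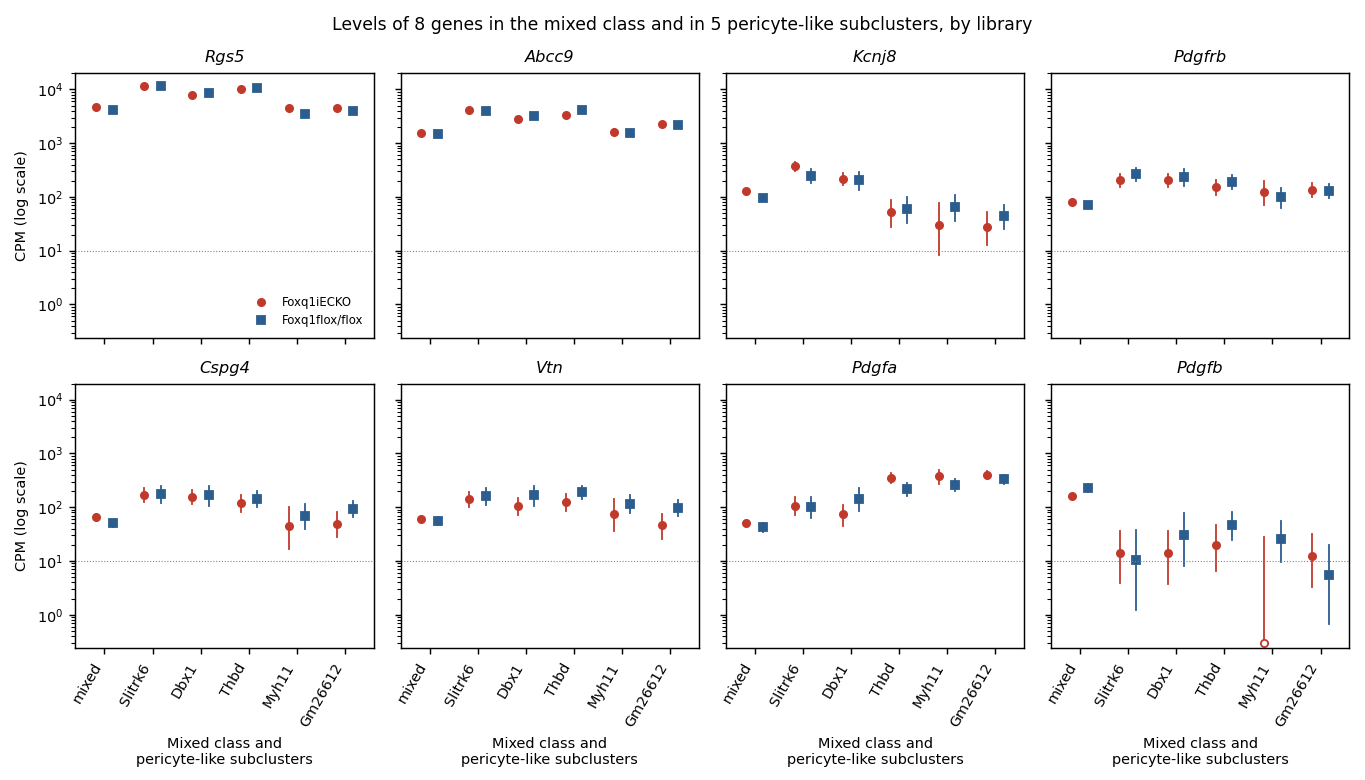
Levels (CPM, log scale) of 8 of the genes in the mixed class and in 5 pericyte-like subclusters named by leading gene, with Foxq1iECKO as circles left of Foxq1flox/flox as squares, bars for 95% counting intervals, an open symbol at the axis floor for 0 UMIs and a dotted line at 10 CPM. Kcnj8 falls into a high pair (Slitrk6, Dbx1) and 3 low subclusters, Pdgfa is higher in those 3 than in the pair, and Pdgfb is above 100 CPM in the mixed class alone.

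Fibroblast-like cells had 0 of 5 measured members past the limit, where 1.04% of 8716 genes were higher and 1.12% lower (91 and 98 genes; 119 and 74 under median-of-ratios scaling). Pdgfra was at 526 CPM in the Foxq1iECKO and 641 CPM in the Foxq1flox/flox library, a ratio of -0.29 [-0.33, -0.24], and was below its Foxq1flox/flox level in each of 4 clusters. The cluster led by Twist2 and Egfl6 held the most Pdgfra, at 798 CPM (766 to 831) and 877 CPM (849 to 905), and the Cldn11-led cluster the least, at 413 and 434 CPM. Pdgfa had a ratio of 0.53 [0.38, 0.68] and was highest in the Cldn11-led cluster, at 111 CPM (100.3 to 122) and 81.0 CPM (68.8 to 94.6). In that cluster Pdgfrb, at 17.2 and 29.2 CPM (-0.76 [-1.30, -0.22]), and Abcc9, at 18.8 and 33.3 CPM (-0.83 [-1.33, -0.32]), were lower, where 4.27% of 8691 genes were. Rgs5 was higher in the Tnn-led cluster, at 100.1 and 56.3 CPM (0.83 [0.54, 1.13]), where 1.96% of 8846 genes were higher, and lower in the Twist2-led one, at 18.6 and 33.4 CPM (-0.85 [-1.33, -0.38]), where 2.86% of 8608 genes were lower. Cspg4, at 12.4 and 7.89 CPM (0.65 [0.03, 1.29]), was higher in the Ibsp-led cluster, where 2.05% of 8796 genes were. Neuron-like cells, for comparison, held 45.8 and 17.6 CPM of Rgs5 and 18.2 and 9.74 CPM of Abcc9.

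Other genes of the PDGF system were read against the shares over all genes, 1.62% higher and 0.449% lower in endothelial-like cells and 2.35% higher and 3.78% lower in pericyte-like cells. In endothelial-like cells 2 of the 5 further ligand and receptor genes were measured, Pdgfd (29.0 CPM in the Foxq1iECKO and 34.8 CPM in the Foxq1flox/flox library) and the co-receptor gene Nrp1 (257 and 295 CPM), and 0 passed the limit. Of genes that process or retain PDGF, 14 of 17 were measured and 1 was higher, the proteoglycan gene Sdc2 at 48.8 and 21.1 CPM (1.21 [1.03, 1.39]), with a list median of 0.06. Of 26 measured receptor signalling genes 1 was lower, the feedback inhibitor gene Spry4 at 30.8 and 49.7 CPM (-0.69 [-0.86, -0.52]), with a median of -0.03. Among 11 measured endothelial signals to pericytes, Dll4, a Notch ligand, was lower at 42.9 and 70.7 CPM (-0.72 [-0.86, -0.58]), and the median was -0.17. In pericyte-like cells 3 of 8 measured genes of that list were lower, Tgfb2 (73.9 and 136 CPM), Angpt2 (62.9 and 101 CPM) and Edn1 (3.93 and 11.9 CPM), with a median of -0.59. Of 11 measured endothelial markers in pericyte-like cells 0 were higher and 2 lower, Cdh5 (15.7 and 34.1 CPM) and Erg (8.64 and 20.4 CPM). The median of those 11 was -0.07, against -0.04 over all measured genes. In fibroblast-like cells 0 of 25 receptor signalling genes and 0 of 15 processing genes were past the limit.

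Across 24 sums (12 classes in 2 libraries), Rgs5, Abcc9, Kcnj8 and Vtn had the highest correlations among the members on a log2(CPM + 5) scale, between 0.95 and 0.97 over their 6 pairs. Cspg4 correlated less with these 4, between 0.71 and 0.75, and at 0.81 with Pdgfrb. Pdgfrb and Vtn had a Pearson correlation of 0.92, whereas Pdgfb and Pdgfra had -0.47 and Pdgfb and Pdgfrb -0.07. The sums of a library share their depth and their free RNA, and a class appears in both libraries, so these values are descriptions. The genes most like each member, among those at 50 or more CPM, were Rasgrp3 (0.97) for Pdgfb, Katnbl1 (0.81) for Pdgfa, Ednra (0.98) for Pdgfrb and Adamts2 (0.97) for Pdgfra. They were Itga1 (0.98) for Rgs5, Rasd1 (0.99) for Abcc9, Fam162b (0.99) for Kcnj8, Tmem45a (0.96) for Cspg4 and Heyl (0.98) for Vtn. Pdgfa had the lowest best match of the 9 genes.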

How the data were processed

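The deposited tables hold raw UMI counts per gene and cell barcode, 1 library per genotype; fastp 0.24.0, STARsolo 2.7.11b and mm10 are named, without settings, per the submitters' processing notes, and each deposited barcode had at least 500 UMIs. Cells needed 500 genes, 1000 UMIs and no more than 20% of UMIs from mitochondrial genes, and doublets predicted by Scrublet were removed (expected share 8%). Cells were scaled to 10000 UMIs and clustered (scanpy 1.11.5, leidenalg 0.10.2, resolution 1, 2000 variable genes, 30 components, 20 neighbours) without the 9 genes. A cluster took a class name when 3 or more markers of 1 of 15 lists reached 50 CPM and exceeded the remaining cells 2-fold (pseudocount 5 CPM). Clusters holding at least 25% of both the endothelial and the pericyte list were pooled with endothelial cells and subclustered at resolution 0.6; this step and the 25% limit were chosen after the data were seen.

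UMIs were summed per class and library. Levels have exact Poisson intervals, shares exact Clopper-Pearson intervals and ratios of levels exact conditional binomial intervals (95%, scipy 1.17.1); these cover counting error only, and no p-value was computed because cells are not replicates. The calls were run on simulated counts with counting error only, the error that the intervals assume. That simulation held no variation between embryos or libraries, so it cannot show how reliable the differences between genotypes are. Alternatives used edgeR 4.0.16 (TMM) and DESeq2 1.42.0 (median of ratios) for scaling only. Named genes are the 9 members and, in each fixed list, genes past the size limit or most abundant; the likeness of genes was measured among those at 50 or more CPM in a class. Some leading genes of clusters are not reported here. The members and lists were chosen with earlier results of these data known.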

Additional observations from a re-analysis of the deposited data

Results flagged for a closer look

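Abcc9 had ratios past the size limit in opposite directions among endothelial subclusters of at least 100 cells per library. The log2 ratio, Foxq1iECKO over Foxq1flox/flox, was 1.59 in the Synm-led subcluster (703 and 234 CPM), 1.02 in the arterial subcluster (433 and 213 CPM) and -0.66 in the cycling subcluster (52.1 and 82.4 CPM). The difference between the subclusters was not tested, and the cycling value rests on 28 Foxq1iECKO and 72 Foxq1flox/flox UMIs. The share of cycling cells with an Abcc9 UMI was 14.8% (18 of 122) in the Foxq1iECKO and 14.3% (24 of 168) in the Foxq1flox/flox library, and 8.65% and 6.29% after thinning. Notch3, a pericyte marker, was at 113 and 35.8 CPM in the Synm-led, 102 and 36.4 CPM in the arterial and 26.1 and 27.5 CPM in the cycling subcluster.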

How the results depend on the processing

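Across the alternatives run, 0 results changed direction past the limit; of the main results 44 values stayed and 7 moved, and of the ratios of single genes 209 stayed and 26 moved. In pericyte-like cells 1 member passed the limit under TMM scaling and 1 under median-of-ratios scaling (Kcnj8 in both), and 2 did with a marker gate per cell (Pdgfra at -0.60 and Vtn at -0.91), against 0. Pdgfrb was at -0.38 with that gate, which held 636 Foxq1iECKO and 495 Foxq1flox/flox cells and Pdgfra at 170.0 and 258 CPM. In endothelial-like cells 1 member passed with the gate, and 6 (Pdgfrb, Rgs5, Abcc9, Kcnj8, Cspg4 and Vtn) with mixed barcodes joined, against 3; Pdgfb was then at -0.30. Ratios ranged from -0.30 to -0.18 for Pdgfb, 0.83 to 1.51 for Rgs5, 0.38 to 0.98 for Abcc9 and 1.20 to 1.86 for Vtn in endothelial-like cells, and from -0.38 to 0.03 for Pdgfrb in pericyte-like cells. The Vtn range covers 9 alternatives, against 11 for Pdgfb, Rgs5 and Abcc9, and does not include the gate. Cluster resolution, stricter cell filters, kept doublets, kept members and, added after the data were seen, leaving out the haemoglobin-led subcluster moved no count of members by over 1.5 times. Over all genes, 107 were higher and 107 lower in endothelial-like cells with the gate, against 130 and 36; 142 and 149 in pericyte-like cells with mixed barcodes joined, against 209 and 336. With mixed barcodes joined, 158 and 28 of 8107 genes passed in endothelial-like cells; in pericyte-like cells 278 and 347 of 9123 did with the gate, 245 and 299 of 8883 under TMM and 284 and 262 under median-of-ratios scaling. A floor of 50 CPM, which tests fewer genes, gave 24 and 11 in endothelial-like, 41 and 109 in pericyte-like, 21 and 20 in fibroblast-like and 18 and 25 in mixed cells, and 2 members in endothelial-like cells (Vtn is under it). The cause of the other shifts was not tested. No paired analysis was possible because each genotype has 1 library, and for the same reason none could be left out. The gate was not run for fibroblast-like and mixed classes. Pdgfrb and Cspg4 in endothelial-like cells are uncounted because of the 10 CPM floor.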
